A study of Homo sapiens with 16 samples.

Results

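Aminoacyl-tRNA synthetases join each amino acid to its transfer RNA, and 39 genes of this system are described here in LNCaP prostate cancer cells given an inhibitor of the kinase GCN2. They were taken by name from the count file, 39 of 62754 genes, and all 39 were found, 18 of them under an older symbol such as GARS in GENCODE release 29. They are 20 cytosolic synthetases, 16 mitochondrial synthetases whose symbols end in ARS2, and AIMP1, AIMP2 and EEF1E1, the 3 scaffold proteins of the multi-synthetase complex. All 39 were among the 18549 genes that passed the filter on low counts and were tested.

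A synthetase typically recognises a single amino acid and the matching tRNAs, although EPRS1 joins the enzymes for glutamate and proline in one protein, and the cytosol and the mitochondria mostly use separate enzymes, both encoded in the nucleus. GARS1 for glycine and KARS1 for lysine are exceptions that serve both compartments from a single gene. Several cytosolic enzymes sit together in a large complex held by the scaffold proteins. GCN2, the product of EIF2AK4, senses uncharged tRNA when amino acids run short and phosphorylates the initiation factor eIF2, after which the transcription factor ATF4 is translated more. Genes of many cytosolic synthetases are known targets of ATF4 in other systems.

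LNCaP is an established human prostate cancer line, and here all cells were grown in phenol-free RPMI-1640 with fetal bovine serum. The 4 groups were p53 KO cells with 5 µM GCN2iB for 48 h, p53 KO cells with vehicle (DMSO), WT cells with 5 µM GCN2iB for 48 h, and WT cells with vehicle, with 4 libraries each. Knockout was by CRISPR, and nothing in the labels tells a single clone from a pool. Nor do the labels tie replicates to separate cultures, and the p-values therefore cover only the spread between these libraries, which may be technical. Total RNA was sequenced from whole wells, and fewer cells of a kind cannot be told apart from less RNA per cell.

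Library totals ran from 17418072 to 39915685 counts. The 7 luminal prostate markers summed here, such as KLK2 and KLK3, were detected in all 16 libraries, with a summed level of 4217 to 5417 CPM (normalised counts, for these markers relative to the unscaled total of a library). On that scale the 3 immune markers summed to at most 0.281, with PTPRC, CD3E and CD68 at 0 in 13, 14 and 3 libraries. Of the 3 basal markers KRT5 and TP63 were at 0 in 13 and 14 libraries, while KRT14 was found in all 16, and their sum was 3.19 to 4.39 in p53 KO and 2.02 to 2.75 in WT libraries. The 3 stromal markers summed to 18.7 to 28.1, with COL1A1 at 11.3 to 23.8, and the 2 endothelial ones, of which VWF was found in all 16 libraries, to 9.27 to 13.0 in p53 KO and 17.6 to 22.6 in WT libraries. Within a genotype the luminal and stromal sums were lower with GCN2iB, without overlap. Luminal sums were 4217 to 4506 with GCN2iB and 4744 to 5003 with vehicle in p53 KO cells. In WT cells they were 4400 to 4540 with GCN2iB and 5003 to 5417 with vehicle. Stromal sums were 18.7 to 22.1 and 25.1 to 28.1 in p53 KO cells, and 19.1 to 21.8 and 22.8 to 27.8 in WT cells, in the same order. The part in the results of the markers that moved with genotype or treatment was not tested. CDKN1A, a direct p53 target, was 37.5 ± 3.73 CPM (from here on relative to the scaled total) in p53 KO vehicle and 275 ± 21.1 CPM in WT vehicle libraries (SD, n = 4 each). WT GCN2iB replicate 4 stood apart, at -18.26 on the first principal component against -33.61 to -31.47 in the other WT GCN2iB libraries. Without it, 19 synthetase and scaffold genes were called for GCN2iB in WT cells in place of 21, 16 in p53 KO cells as with it, 9 for genotype under vehicle as with it, and 8 for genotype under GCN2iB in place of 10. On the second component p53 KO GCN2iB replicate 4 was at -30.55 against -13.87 to -10.92 in its group, and WT vehicle replicate 1 at 35.15 against 10.82 to 18.73. Without p53 KO GCN2iB replicate 4 the counts were 21, 15, 10 and 14 in the same order, with FARSA, IARS1, NARS1 and NARS2 gained for genotype under GCN2iB, and GARS1 was called in the interaction. Without WT vehicle replicate 1 they were 19, 16, 13 and 10, with FARSA, QARS1, PARS2 and TARS2 gained for genotype under vehicle.

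In WT cells GCN2iB lowered most cytosolic synthetases, with GARS1 and CARS1 at the low end, and it raised VARS1, FARSA, AIMP2 and the mitochondrial NARS2 and SARS2. Of the 39 genes 16 fell and 5 rose, against 13.6% of all tested genes lower and 11.6% higher (25.2% in either direction). A gene is said to rise or fall when the Benjamini-Hochberg adjusted p of edgeR's quasi-likelihood test over all tested genes was under 0.05. The 20 cytosolic enzymes had 12 lower and 2 higher, with a median log2 change of -0.49, against -0.03 over all genes. The 16 mitochondrial enzymes had 4 lower and 2 higher, with a median of -0.04. The GCN2iB and vehicle libraries did not overlap for 21 of the 39 genes, against 26.0% of all tested genes.

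GARS1, glycyl-tRNA synthetase (ENSG00000106105, chromosome 7, 30594681 to 30634033 in GRCh38), had 103, 83, 87 and 90.7 CPM in the 4 WT GCN2iB libraries, against 284, 269, 272 and 275 CPM in WT vehicle. Every GCN2iB library was below every vehicle library, and GARS1 was 3.02-fold lower (log2 -1.59, SE 0.06, adjusted p = 5.06e-14). CARS1, the cysteine enzyme (ENSG00000110619, chromosome 11, 3000922 to 3057613), had 27.6, 25.6, 26.8 and 27.2 CPM with GCN2iB, against 65.7, 68.7, 68.1 and 68.7 CPM with vehicle. It was 2.53-fold lower (log2 -1.34, SE 0.06, adjusted p = 6.59e-13), again with no overlap between the groups. Both enzymes act outside the multi-synthetase complex.

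The next falls were 1.51 to 1.68-fold and came from 5 enzymes. MARS1, which charges methionine for both initiation and elongation (ENSG00000166986, chromosome 12, 57475445 to 57517569), had 195, 184, 175 and 177 CPM with GCN2iB, against 285, 316, 313 and 312 CPM with vehicle in WT cells (log2 -0.75, SE 0.06, adjusted p = 5.75e-09). SARS1, the serine enzyme, which also charges the selenocysteine tRNA (ENSG00000031698, chromosome 1, 109213918 to 109238169), had 190.1, 192, 185 and 197 CPM with GCN2iB, against 299, 316, 322 and 313 CPM with vehicle (log2 -0.71, SE 0.05, adjusted p = 2.41e-09). EPRS1, a fused enzyme for glutamate and proline (ENSG00000136628, chromosome 1, 219968601 to 220046658), had 283, 263, 270.2 and 269.7 CPM with GCN2iB, against 471, 421, 441 and 406 CPM with vehicle (log2 -0.68, SE 0.07, adjusted p = 5.41e-07). None of the 3 overlapped between the groups. YARS1, the tyrosine enzyme (ENSG00000134684, chromosome 1, 32775237 to 32818153), had 157, 154, 167 and 172 CPM with GCN2iB, against 250.1, 261, 253 and 268 CPM with vehicle (log2 -0.67, SE 0.05, adjusted p = 1.27e-08). WARS1, the tryptophan enzyme, also known as an interferon-induced gene (ENSG00000140105, chromosome 14, 100333788 to 100376805), had 129, 114, 113 and 118 CPM with GCN2iB, against 171, 184, 179 and 180.1 CPM with vehicle (log2 -0.59, SE 0.06, adjusted p = 1.2e-07). These too were lower in every GCN2iB library.

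IARS1 for isoleucine, TARS1 for threonine, NARS1 for asparagine and AARS1 for alanine fell by log2 values of -0.55, -0.52, -0.50 and -0.47 in WT cells. LARS1 for leucine was the smallest called fall among cytosolic enzymes (log2 -0.23, SE 0.07, adjusted p = 0.0265), and the call was lost on leaving out any 1 of the 4 WT GCN2iB libraries or WT vehicle replicate 1, 2 or 3 (adjusted p 0.0508 to 0.128). HARS1, KARS1, QARS1, RARS1, FARSB and TARS3, for histidine, lysine, glutamine, arginine, phenylalanine and threonine, did not pass the test, with log2 values between -0.11 and 0.07. GARS1 and KARS1 thus stood at different log2 changes, -1.59 and -0.11, although each serves both compartments. Their difference was not tested.

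Among the cytosolic enzymes VARS1 and FARSA rose. VARS1, the valine enzyme, which binds elongation factor eEF1 (ENSG00000204394, chromosome 6, 31777518 to 31795953), had 489, 497, 461 and 432 CPM with GCN2iB, against 351, 405, 406 and 422 CPM with vehicle in WT cells (log2 0.25, SE 0.07, adjusted p = 0.0165). FARSA, the alpha subunit of the phenylalanine enzyme (ENSG00000179115, chromosome 19, 12922479 to 12934037), had 404, 419.6, 412 and 416 CPM with GCN2iB, against 288, 336, 336 and 358 CPM with vehicle (log2 0.32, SE 0.08, adjusted p = 0.00383). Neither overlapped between the groups, and the VARS1 call was lost in 1 alternative, without WT vehicle replicate 1 (adjusted p 0.0507; over all alternatives 0.000292 to 0.0507). FARSB, the beta subunit of the same enzyme, was at 157 ± 7.83 CPM with GCN2iB and 157 ± 3.39 CPM with vehicle (log2 -0.01, SE 0.06, adjusted p = 0.949).

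Among the mitochondrial enzymes of WT cells NARS2, for asparagine (ENSG00000137513, chromosome 11, 78435961 to 78574874), had 54.1, 61.3, 59.6 and 57.5 CPM with GCN2iB, against 48, 48, 47.3 and 45.3 CPM with vehicle (log2 0.30, SE 0.06, adjusted p = 0.000546). NARS2 rose while its cytosolic counterpart NARS1 fell. SARS2, for serine (ENSG00000104835, chromosome 19, 38915266 to 38930896), had 4.44, 4.84, 5.72 and 6.48 CPM with GCN2iB, against 2.63, 3.39, 3.77 and 3.68 CPM with vehicle (log2 0.66, SE 0.17, adjusted p = 0.00634). SARS2 is uncertain, since 46.2% of its exonic bases lie in exons of another gene on the same strand, ENSG00000269547, and 10.8% in exons of MRPS12 on the opposite strand. MRPS12, a mitochondrial ribosomal protein gene, rose with GCN2iB by log2 0.45 in p53 KO (adjusted p = 0.00145) and 0.38 in WT cells (adjusted p = 0.00539), and was at 125 ± 4.80 CPM in WT GCN2iB and 96.5 ± 12.2 CPM in WT vehicle libraries. Its part in the SARS2 counts was not tested. RARS2, EARS2, HARS2 and IARS2, for arginine, glutamate, histidine and isoleucine, fell by log2 values of -0.32, -0.26, -0.23 and -0.20. The IARS2 call was lost without WT GCN2iB replicate 3 (adjusted p 0.0651), WT GCN2iB replicate 4 (0.0592) or WT vehicle replicate 3 (0.0594). The other 10 did not pass the test.

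Of the scaffold proteins AIMP2, the central scaffold of the complex (ENSG00000106305, chromosome 7, 6009245 to 6023834), had 68, 74.9, 69.5 and 75.6 CPM with GCN2iB, against 47.2, 53.8, 55.1 and 53.2 CPM with vehicle in WT cells. It rose by log2 0.46 (SE 0.08, adjusted p = 0.000158), with no overlap between the groups. Exons of EIF2AK1, a related eIF2 kinase on the opposite strand, cover 28.9% of its exonic bases. EIF2AK1 fell in WT cells (log2 -0.14, adjusted p = 0.0476) and did not pass the test in p53 KO cells (log2 -0.06, adjusted p = 0.446). Its level was above that of AIMP2, at 249 ± 3.01 CPM in WT GCN2iB and 273 ± 8.74 CPM in WT vehicle libraries. The part of EIF2AK1 in the AIMP2 counts was not tested. AIMP1 and EEF1E1, which bind other parts of the complex, had log2 changes of -0.16 and -0.09 and did not pass the test. The enzymes of the complex listed here fell in 4 of 7 cases and the free cytosolic ones in 8 of 13, with 2 of the free ones higher.

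**Figure D1:**
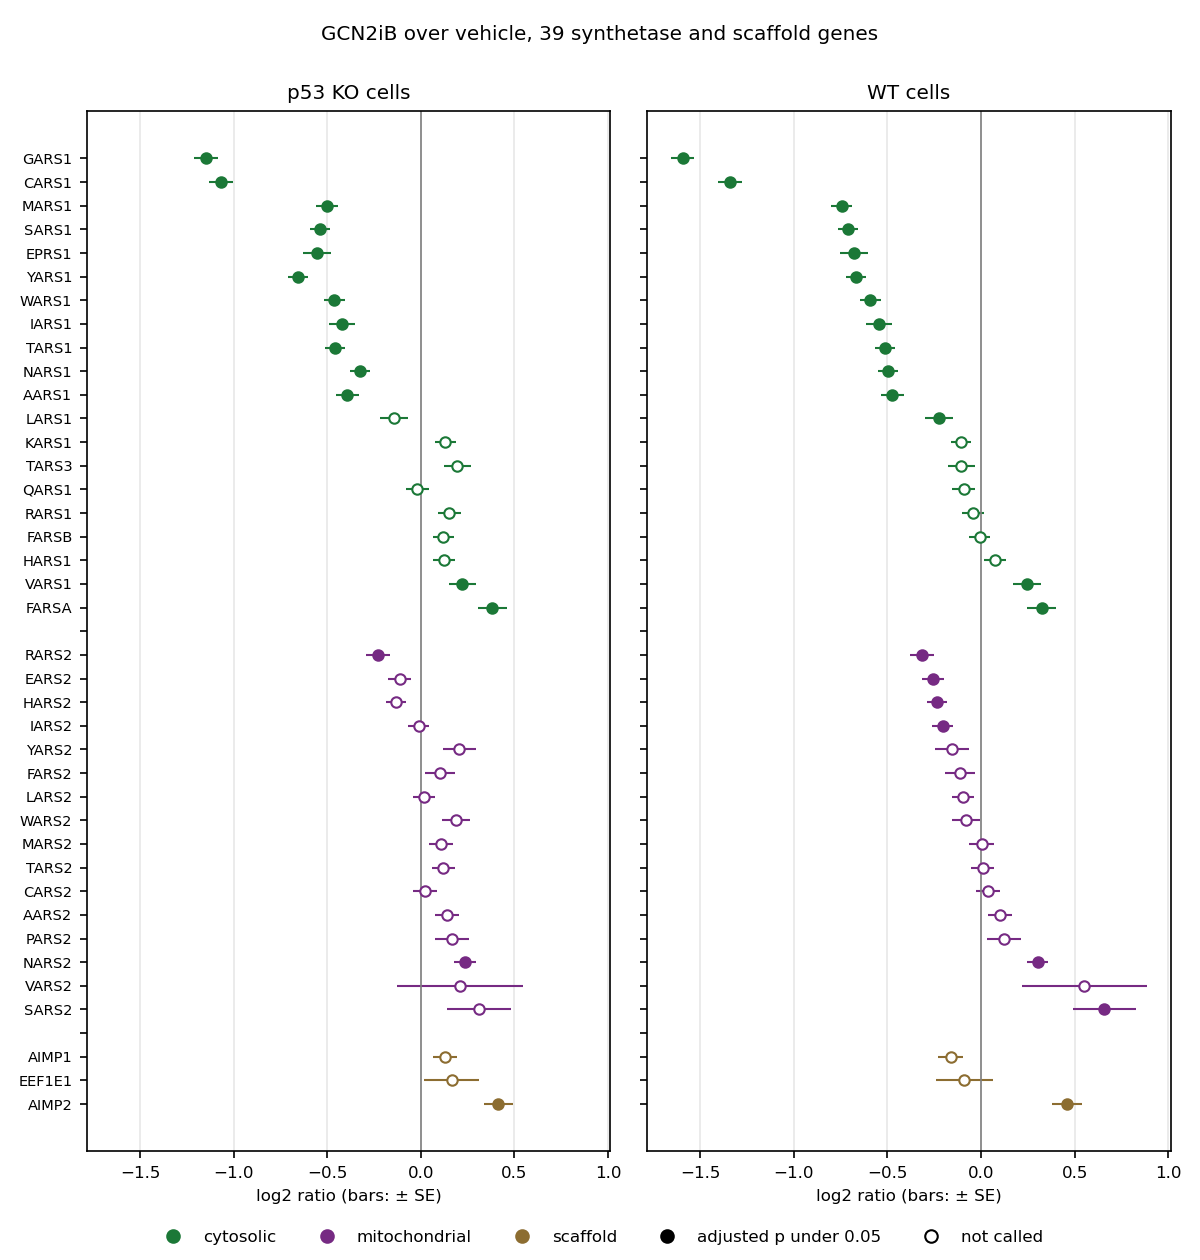
Log2 ratio of GCN2iB over vehicle for the 39 genes by class, in p53 KO and in WT cells; points are edgeR estimates, bars ± SE, and filled points have an adjusted p under 0.05. GARS1 and CARS1 lie farthest left in both genotypes, while VARS1, FARSA, AIMP2 and NARS2 are filled on the right in both.

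In p53 KO cells GCN2iB lowered 12 of the 39 genes and raised 4, against 8.71% of all tested genes lower and 11.4% higher (20.1% in either direction). The cytosolic enzymes had 11 lower and 2 higher, with a median log2 change of -0.36, against -0.01 over all genes. The mitochondrial enzymes had 1 lower, RARS2, and 1 higher, NARS2, with a median of 0.11. All 16 changes had the direction they had in WT cells, and no gene was called in p53 KO cells alone. The groups did not overlap for 24 of the 39 genes, against 21.7% of all tested genes. LARS1, EARS2, HARS2, IARS2 and SARS2 were called in WT cells and not in p53 KO cells.

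GARS1 had 132, 126, 128 and 122 CPM in p53 KO GCN2iB libraries, against 293, 284, 276 and 272 CPM in p53 KO vehicle (2.22-fold lower, log2 -1.15, SE 0.06, adjusted p = 1.35e-11). CARS1 had 37.3, 37.9, 35.3 and 39 CPM with GCN2iB, against 69.6, 84.5, 80.1 and 79.8 CPM with vehicle (2.10-fold lower, log2 -1.07, SE 0.06, adjusted p = 7.26e-11). YARS1 had 159, 162, 172 and 173 CPM with GCN2iB, against 256, 267, 256 and 271 CPM with vehicle (1.58-fold lower, log2 -0.66, SE 0.05, adjusted p = 1.72e-08). All 3 were lower in every GCN2iB library. EPRS1, SARS1, MARS1, WARS1, TARS1, IARS1, AARS1 and NARS1 also fell, with log2 values of -0.56 for EPRS1 to -0.33 for NARS1. RARS2 fell by log2 -0.23 (adjusted p = 0.0151), a call lost in 1 alternative, with no count filter (adjusted p 0.0700; over all alternatives 0.00151 to 0.0700).

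The genes that rose in p53 KO cells were the same as in WT cells except SARS2. FARSA had 361, 376, 341 and 438 CPM with GCN2iB, against 262, 298, 278 and 326 CPM with vehicle (log2 0.38, SE 0.08, adjusted p = 0.00118). AIMP2 had 68.1, 76.6, 63.1 and 77.1 CPM with GCN2iB, against 48.1, 55, 50.9 and 60.1 CPM with vehicle (log2 0.41, SE 0.08, adjusted p = 0.000537). NARS2 had 50.6, 50.8, 52.1 and 55.4 CPM with GCN2iB, against 44.6, 45.1, 42.8 and 44.6 CPM with vehicle (log2 0.24, SE 0.06, adjusted p = 0.00538). For these 3 the groups did not overlap. VARS1 had 334, 348, 339 and 381 CPM with GCN2iB, against 265, 309, 291 and 337 CPM with vehicle (log2 0.22, SE 0.07, adjusted p = 0.0352). Its groups overlapped, and 10 of 26 alternatives lost the call (adjusted p up to 0.137), among them the omission of p53 KO GCN2iB replicate 2 or 4, p53 KO vehicle replicate 1, 2 or 3, or WT vehicle replicate 3. SARS2 had 4.66, 4.44, 2.42 and 4.83 CPM with GCN2iB, against 2.96, 3.68, 3.99 and 2.92 CPM with vehicle (log2 0.31, SE 0.17, adjusted p = 0.218). Without its lowest library, p53 KO GCN2iB replicate 3, the SARS2 adjusted p was 0.0358, and over all alternatives it ran up to 0.428.

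**Figure D2:**
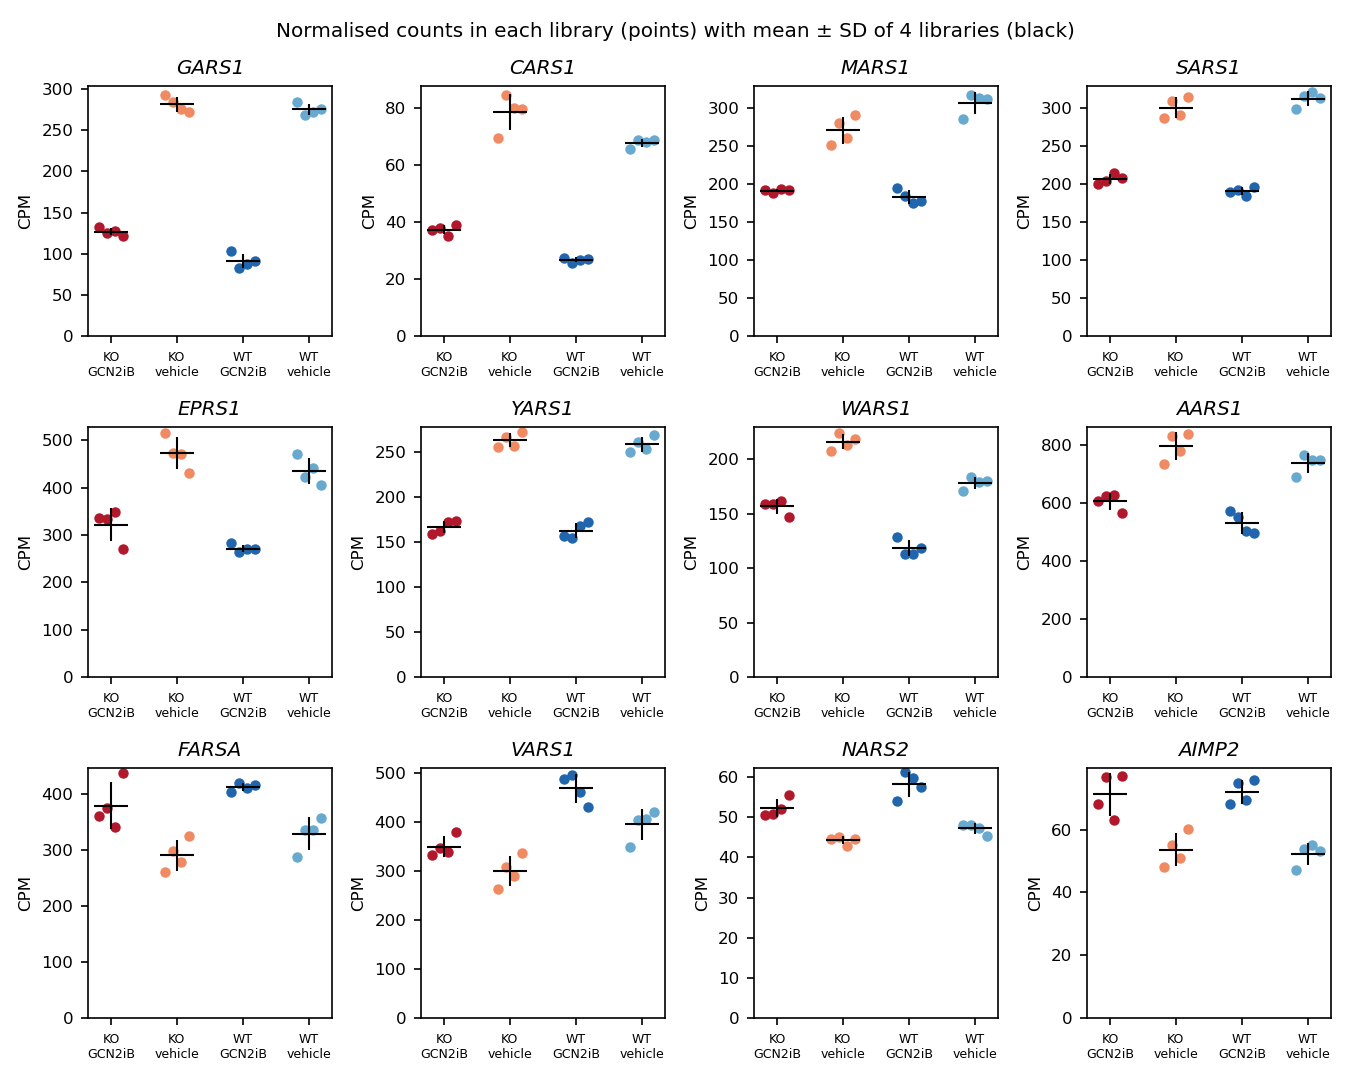
CPM in each of the 16 libraries for 12 genes, with p53 KO left of WT and GCN2iB left of vehicle; points are libraries and black marks the mean ± SD of 4 libraries. GARS1 and CARS1 separate GCN2iB from vehicle without overlap in both genotypes.

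Levels summed over a class showed the balance of falls and rises. The cytosolic enzymes summed to 4572 ± 81.4 CPM in p53 KO GCN2iB and 5514 ± 100.3 CPM in p53 KO vehicle libraries (SD, n = 4 each). In WT cells they summed to 4388 ± 121 CPM with GCN2iB and 5631 ± 75.4 CPM with vehicle. Leaving out GARS1 and CARS1, the sums were 4407 with GCN2iB and 5155 with vehicle in p53 KO cells, and 4270 with GCN2iB and 5288 with vehicle in WT cells. The mitochondrial enzymes summed to 908 ± 16.6 CPM with GCN2iB and 890.4 ± 14.7 CPM with vehicle in p53 KO cells. In WT cells the mitochondrial sum was 904 ± 31.6 CPM with GCN2iB and 960.3 ± 14.2 CPM with vehicle. The cytosolic sums did not overlap between treatments in either genotype. Sums of CPM weight long and abundant transcripts most.

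**Figure D3:**
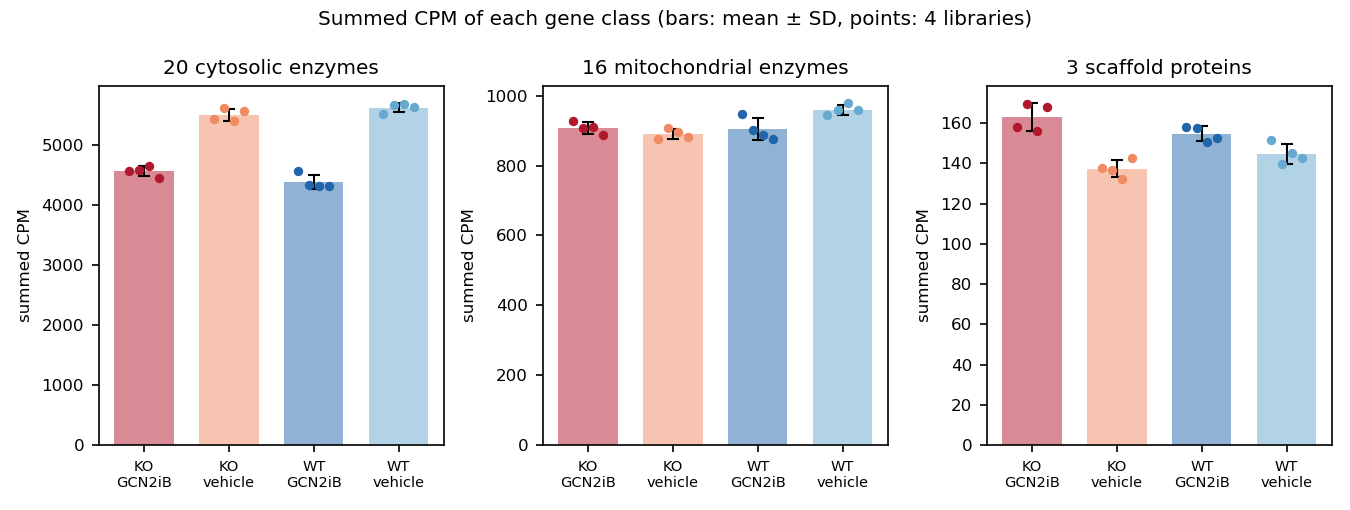
Summed CPM of the cytosolic, mitochondrial and scaffold genes in each library, by group; points are libraries and bars the group mean ± SD. The cytosolic sum lies between 4316 and 4656 CPM in the GCN2iB libraries and between 5415 and 5696 CPM in the vehicle libraries.

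The sequence around a RefSeq start is given for the 4 cytosolic genes with the smallest p in WT cells. Each stretch runs 250 bases before to 30 after the start in RefSeq (GRCh38.p14), 5′ to 3′ in the direction of the gene. GARS1 is at chr7:30594485-30594764 (+ strand), CARS1 at chr11:3040955-3041234 (- strand), SARS1 at chr1:109213643-109213922 (+ strand) and MARS1 at chr12:57487818-57488097 (+ strand). Capitals mark a match to TGATGNAA or its complement TTNCATCA, a form of the composite C/EBP and ATF element that ATF4 is known to bind. Capitals occur in MARS1 and in none of the other 3.
GARS1: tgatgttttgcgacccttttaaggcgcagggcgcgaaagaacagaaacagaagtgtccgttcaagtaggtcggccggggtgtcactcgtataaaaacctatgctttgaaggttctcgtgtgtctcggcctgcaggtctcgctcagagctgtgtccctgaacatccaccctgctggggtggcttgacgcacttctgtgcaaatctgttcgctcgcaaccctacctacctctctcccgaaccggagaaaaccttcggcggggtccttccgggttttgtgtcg
CARS1: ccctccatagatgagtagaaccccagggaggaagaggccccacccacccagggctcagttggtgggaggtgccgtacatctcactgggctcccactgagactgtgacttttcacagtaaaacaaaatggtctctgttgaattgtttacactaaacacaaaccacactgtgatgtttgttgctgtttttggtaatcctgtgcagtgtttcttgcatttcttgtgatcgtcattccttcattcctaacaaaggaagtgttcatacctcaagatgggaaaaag
SARS1: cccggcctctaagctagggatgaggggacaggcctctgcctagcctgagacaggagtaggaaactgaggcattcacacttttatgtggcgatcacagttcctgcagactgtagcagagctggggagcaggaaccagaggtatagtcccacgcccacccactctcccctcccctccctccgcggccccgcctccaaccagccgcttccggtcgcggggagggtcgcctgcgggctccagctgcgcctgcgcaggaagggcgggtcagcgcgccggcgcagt
MARS1: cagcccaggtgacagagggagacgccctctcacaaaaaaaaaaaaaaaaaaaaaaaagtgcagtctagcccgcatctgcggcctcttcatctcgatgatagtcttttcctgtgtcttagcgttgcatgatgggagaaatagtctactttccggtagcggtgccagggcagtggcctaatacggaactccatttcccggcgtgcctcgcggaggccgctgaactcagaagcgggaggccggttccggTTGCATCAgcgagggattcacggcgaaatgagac

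RefSeq start windows of 300 bases were found for 33 of the 39 genes. LARS1, TARS3, VARS1, YARS1, AARS2 and VARS2 had no entry. The 8-letter motif was searched on both strands, and 5 of the 33 windows held it, or 15.2%, against 1024 of 27305 windows of all genes, or 3.75%. A match is a description of letters, and no match says only that these letters are not in the window. A single window was searched for each gene, and some genes, CARS1 and MARS1 among them, also have annotated exons upstream of it. The CARS1 start used was 3040984, while the gene is annotated up to 3057613 on the - strand. For MARS1 it was 57488068, while the gene is annotated from 57475445 on the + strand. Both windows thus lie inside the annotated genes and do not show their outermost starts. The 5 matches are shown with 11 bases on either side, because 4 of them lie in cytosolic genes that GCN2iB lowered in both genotypes. They are AARS1 at chr16:70289675-70289704 (- strand), IARS1 at chr9:92293692-92293721 (- strand), MARS1 at chr12:57488053-57488082 (+ strand), NARS1 at chr18:57621804-57621833 (- strand) and the mitochondrial YARS2 at chr12:32756076-32756105 (- strand).
AARS1: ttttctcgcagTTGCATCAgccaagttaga
IARS1: ttttcagcgcgTTGCATCAcctccgtgcgc
MARS1: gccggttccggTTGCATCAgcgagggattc
NARS1: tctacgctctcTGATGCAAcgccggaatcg
YARS2: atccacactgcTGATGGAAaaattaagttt

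AARS1, IARS1, MARS1 and NARS1 shared the same 8 letters, TTGCATCA or its complement TGATGCAA. The first base of the match lay 187, 13 and 4 bases before the start in AARS1, IARS1 and MARS1 and 14 after it in NARS1. Among cytosolic enzymes with a window, 4 of the 10 lowered by GCN2iB held the motif and 0 of the 6 others did. These were the same genes in both genotypes, so the second genotype adds no separate count. The split was not tested. The 4 with it had log2 changes of -0.50 to -0.33 in p53 KO cells, and the 6 without it that fell in WT cells had -1.15 to -0.46 there. In WT cells these ranges were -0.75 to -0.47 with it and -1.59 to -0.52 without it. GARS1 and CARS1, with the largest falls of the 39 genes in both genotypes, had no match in the window. The CARS1 window lies inside the annotated gene, and the sequence at its outermost start was not searched.

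HARS1 and HARS2, the cytosolic and mitochondrial histidine enzymes, lie head to head on chromosome 5, and their starts are separated by the 84 bases printed here (chr5:140691371-140691454 (+ strand), GRCh38.p14, written in the direction of HARS2). No capitals appear because the motif has no match in it.
HARS1 and HARS2: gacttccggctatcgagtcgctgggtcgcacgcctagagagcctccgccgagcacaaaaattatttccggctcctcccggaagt

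In WT cells with GCN2iB HARS2 fell (log2 -0.23, SE 0.05, adjusted p = 0.00266), and HARS1 did not pass the test (log2 0.07, SE 0.06, adjusted p = 0.374). Per kilobase of exon the HARS1 to HARS2 ratio was 1.45 ± 0.0408 with GCN2iB and 1.22 ± 0.0696 with vehicle in p53 KO cells (SD, n = 4 each). In WT cells it was 1.48 ± 0.01 with GCN2iB and 1.20 ± 0.0627 with vehicle. In both genotypes every GCN2iB ratio was above every vehicle ratio. The pair was picked after these values were seen, so no test is given. Their annotated exons share 437 bases on opposite strands, and the strand setting of the counting is not given in the sources used here.

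Other pairs for the same amino acid were compared as ratios of CPM per kilobase of exon, cytosolic over mitochondrial. CARS1 to CARS2 was 0.716 ± 0.0199 with GCN2iB and 1.52 ± 0.0377 with vehicle in p53 KO cells. In WT cells it was 0.433 ± 0.0208 with GCN2iB and 1.13 ± 0.057 with vehicle. In both genotypes the cytosolic level per kilobase was thus below the mitochondrial one with GCN2iB and above it with vehicle. Mean CPM not divided by length gave the same order in each group. Such an order depends on the exon lengths used, here 10.037 kb for CARS1 and 10.46 kb for CARS2, while the change with treatment does not. NARS1 to NARS2 was 3.63 ± 0.342 with GCN2iB and 6.30 ± 0.0677 with vehicle in WT cells. The RARS1 to RARS2 ratio went the other way, 6.20 ± 0.415 with GCN2iB and 5.12 ± 0.187 with vehicle in WT cells, where RARS2 fell and RARS1 did not pass the test. Per kilobase IARS1 stood below IARS2 in all 4 groups. The ratios were 0.716 ± 0.0496 in p53 KO GCN2iB, 0.95 ± 0.0387 in p53 KO vehicle, 0.718 ± 0.0153 in WT GCN2iB and 0.91 ± 0.0433 in WT vehicle. In CPM not divided by length the order was reversed in all 4 groups, with 429 against 266 in WT vehicle. The annotated exons cover 7.401 kb in IARS1 and 4.165 kb in IARS2, and the order of these genes depends on that divisor.

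Levels per kilobase of exon ranked the genes within WT vehicle libraries. AARS1 was highest at 164 ± 7.53 CPM per kb, then FARSA at 135 ± 12.2 and NARS1 at 94.2 ± 2.59 (SD, n = 4), and the ranges of these 3 did not overlap. From SARS1 (81.5 ± 2.54) down to RARS1 (48.8 ± 3.00) many neighbours overlapped, and IARS2 (63.8 ± 2.73) was the highest mitochondrial gene. The medians were 51.1 CPM per kb over the cytosolic and 12.7 over the mitochondrial enzymes. CARS1 at 6.76 ± 0.142 and TARS3 at 5.39 ± 0.379 were the lowest cytosolic genes. The divisor counts all annotated exons of a gene, 10.037 kb for CARS1, and ranks between genes depend on it. The lowest of all were SARS2 at 1.04 ± 0.16 and VARS2 at 0.0728 ± 0.0499. VARS2 held 5 to 39 counts a library and shares 22.0% of its exonic bases with GTF2H4 on the same strand, so its values are uncertain.

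On this linear scale the differences between treatments ranked otherwise than the folds. With GCN2iB minus vehicle in p53 KO cells, AARS1 differed by -42.3 CPM per kb, GARS1 by -37.1, FARSA by 36.2 and CARS1 by -4.10. In WT cells AARS1 differed by -46 CPM per kb and GARS1 by -44.3, although their log2 changes were -0.47 and -1.59. FARSA differed there by 34.1, and CARS1, with a log2 change of -1.34, by -4.08.

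**Figure D4:**
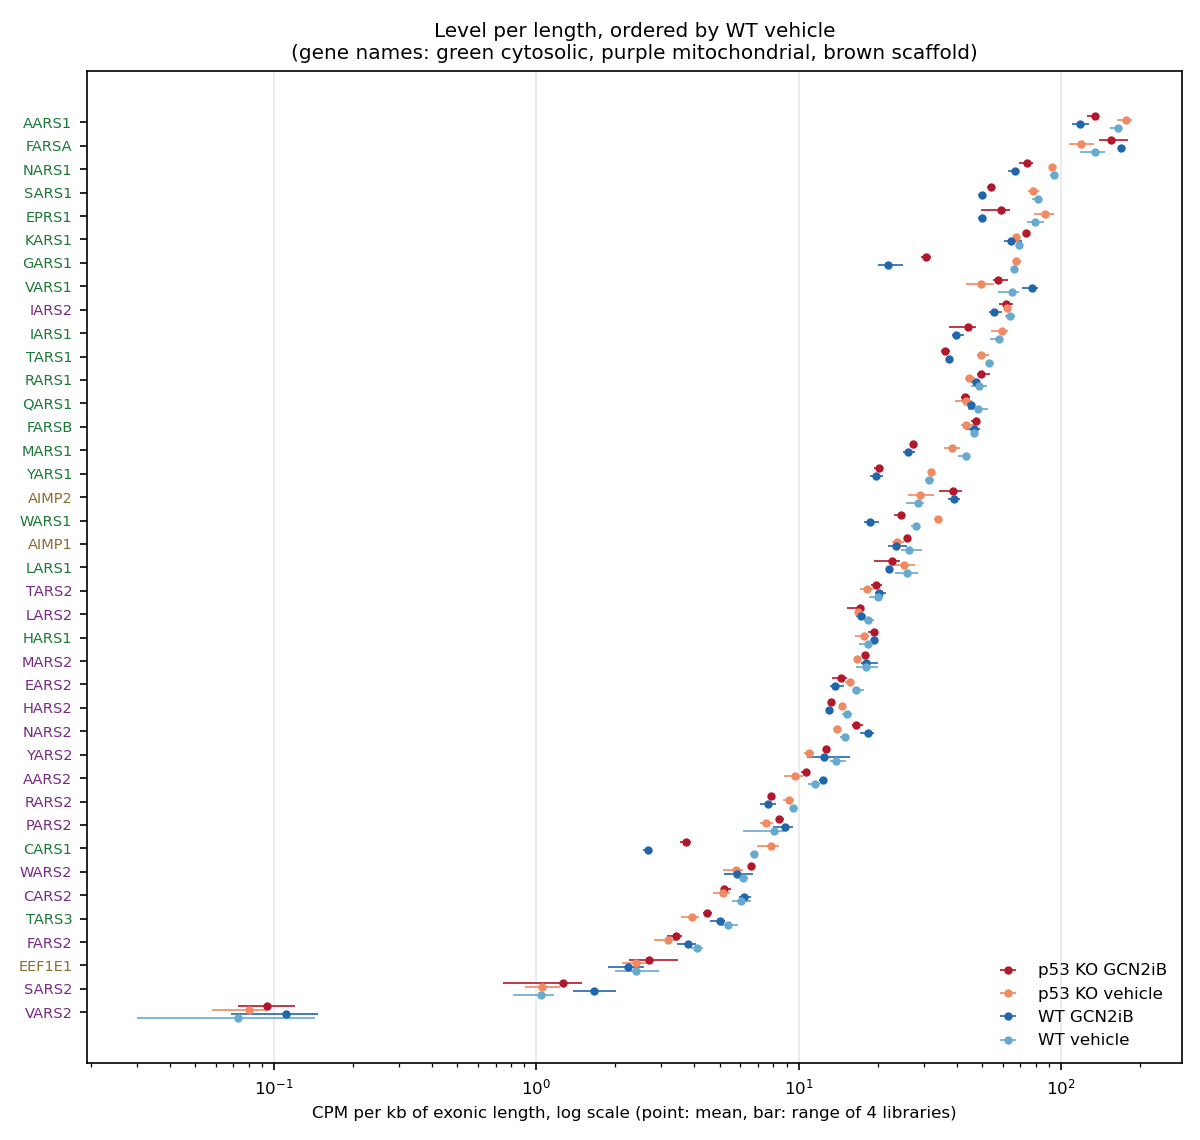
Level of each of the 39 genes in CPM per kilobase of exon in the 4 groups, on a log axis; points are means, bars the range of 4 libraries, gene names are coloured by class, and genes are ordered by WT vehicle. Cytosolic genes fill the upper ranks with IARS2 among them, and SARS2 and VARS2 are at the low end.

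Whether p53 loss itself goes with other levels of these genes was asked by setting p53 KO against WT cells within each treatment. Under vehicle 9 of 39 genes differed, 2 higher and 7 lower in p53 KO cells, against 9.63% of all tested genes higher and 12.1% lower (21.7% in either direction). Libraries of both genotypes did not overlap for 10 of 39 genes, against 22.7% of all tested genes. The median log2 difference was -0.07 over the 39 genes and 0.01 over all genes. A count of 9 of 39 is near that background. TARS3, a second cytosolic threonine enzyme (ENSG00000185418, chromosome 15, 101653598 to 101724604), had 19.1, 18.4, 17.9 and 16.4 CPM in p53 KO vehicle libraries, against 26.9, 25.3, 23.4 and 23.2 CPM in WT vehicle (log2 -0.46, SE 0.07, adjusted p = 4.65e-05). VARS1 had 265, 309, 291 and 337 CPM in p53 KO vehicle, against 351, 405, 406 and 422 CPM in WT vehicle (log2 -0.40, SE 0.07, adjusted p = 0.000326). Neither overlapped between the genotypes.

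The mitochondrial FARS2, YARS2, AARS2 and CARS2, for phenylalanine, tyrosine, alanine and cysteine, were lower in p53 KO vehicle libraries by log2 values of -0.37, -0.34, -0.26 and -0.23. Of the 16 mitochondrial enzymes 15 had a negative log2 difference, against 48.9% of all tested genes, and 4 were called. For 3 of the 15, IARS2, RARS2 and SARS2, with log2 differences of -0.03, -0.06 and -0.01, the sign was positive under at least 1 alternative. MARS1 was lower (log2 -0.18, SE 0.06, adjusted p = 0.0274), a call that 9 of 26 alternatives lost (adjusted p up to 0.137), among them the omission of p53 KO vehicle replicate 1 or 3 or WT vehicle replicate 2, 3 or 4. The CARS2 call was lost without WT vehicle replicate 4 (adjusted p 0.0516). WARS1 and CARS1 were higher in p53 KO vehicle, WARS1 at 216 ± 6.95 against 179 ± 5.54 CPM in WT vehicle (log2 0.27, SE 0.06, adjusted p = 0.000882). For CARS1 the log2 difference was 0.21 (adjusted p = 0.0159), lost in 3 of 26 alternatives, 2 of which left out p53 KO vehicle replicate 2 (adjusted p 0.0867) or replicate 3 (0.0574).

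Under GCN2iB 10 of 39 genes differed between genotypes, 7 higher and 3 lower in p53 KO cells, against 12.7% of all tested genes higher and 11.2% lower (23.9% in either direction). Again the count was near the background. Libraries did not overlap for 8 of 39 genes, against 25.1% of all tested genes. CARS1 had 37.3, 37.9, 35.3 and 39 CPM in p53 KO GCN2iB libraries, against 27.6, 25.6, 26.8 and 27.2 CPM in WT GCN2iB (log2 0.48, SE 0.06, adjusted p = 6.91e-06). GARS1 had 132, 126, 128 and 122 CPM in p53 KO GCN2iB, against 103, 83, 87 and 90.7 CPM in WT GCN2iB (log2 0.48, SE 0.06, adjusted p = 4.56e-06). WARS1 had 159, 159, 162 and 147 CPM in p53 KO GCN2iB, against 129, 114, 113 and 118 CPM in WT GCN2iB (log2 0.40, SE 0.06, adjusted p = 1.25e-05). These 3 were higher in every p53 KO GCN2iB library. VARS1 had 334, 348, 339 and 381 CPM in p53 KO GCN2iB, against 489, 497, 461 and 432 CPM in WT GCN2iB, where no p53 KO library reached a WT one (log2 -0.42, SE 0.07, adjusted p = 0.000181). GARS1 did not pass the test under vehicle, where it was 281 ± 9.28 CPM in p53 KO and 275 ± 6.41 CPM in WT cells (log2 0.03, SE 0.06, adjusted p = 0.771).

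EPRS1, KARS1, AARS1 and the mitochondrial IARS2 were also called higher in p53 KO cells under GCN2iB, with log2 values of 0.24, 0.20, 0.19 and 0.16. Of 26 alternatives, 6 lost the EPRS1 call, 5 the KARS1 call, 15 the AARS1 call and 18 the IARS2 call (adjusted p up to 0.104, 0.0913, 0.178 and 0.242). Each was lost without WT GCN2iB replicate 2, 3 or 4 and without p53 KO GCN2iB replicate 1, and EPRS1, AARS1 and IARS2 also without p53 KO GCN2iB replicate 2 or 3. The AARS1 call was also lost without replicate 2, 3 or 4 of either vehicle group, and the IARS2 call without any 1 vehicle library. AARS2 and CARS2 were lower, with log2 values of -0.22 and -0.25. VARS1, CARS1, WARS1, AARS2 and CARS2 were called in both treatments with the same sign. ATF4 transcript was 284 ± 6.10 CPM in p53 KO GCN2iB and 213 ± 11.7 CPM in WT GCN2iB libraries (log2 0.42, SE 0.06, adjusted p = 3.99e-05), beside 504 ± 33.5 in p53 KO vehicle and 496 ± 40.2 in WT vehicle. With GCN2iB ATF4 fell by log2 -0.83 in p53 KO (adjusted p = 6.28e-09) and -1.22 in WT cells (adjusted p = 5.61e-12). The difference between these falls did not pass the test (log2 0.40, adjusted p = 0.225). The part of ATF4 in the differences between genotypes was not tested.

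**Figure D5:**
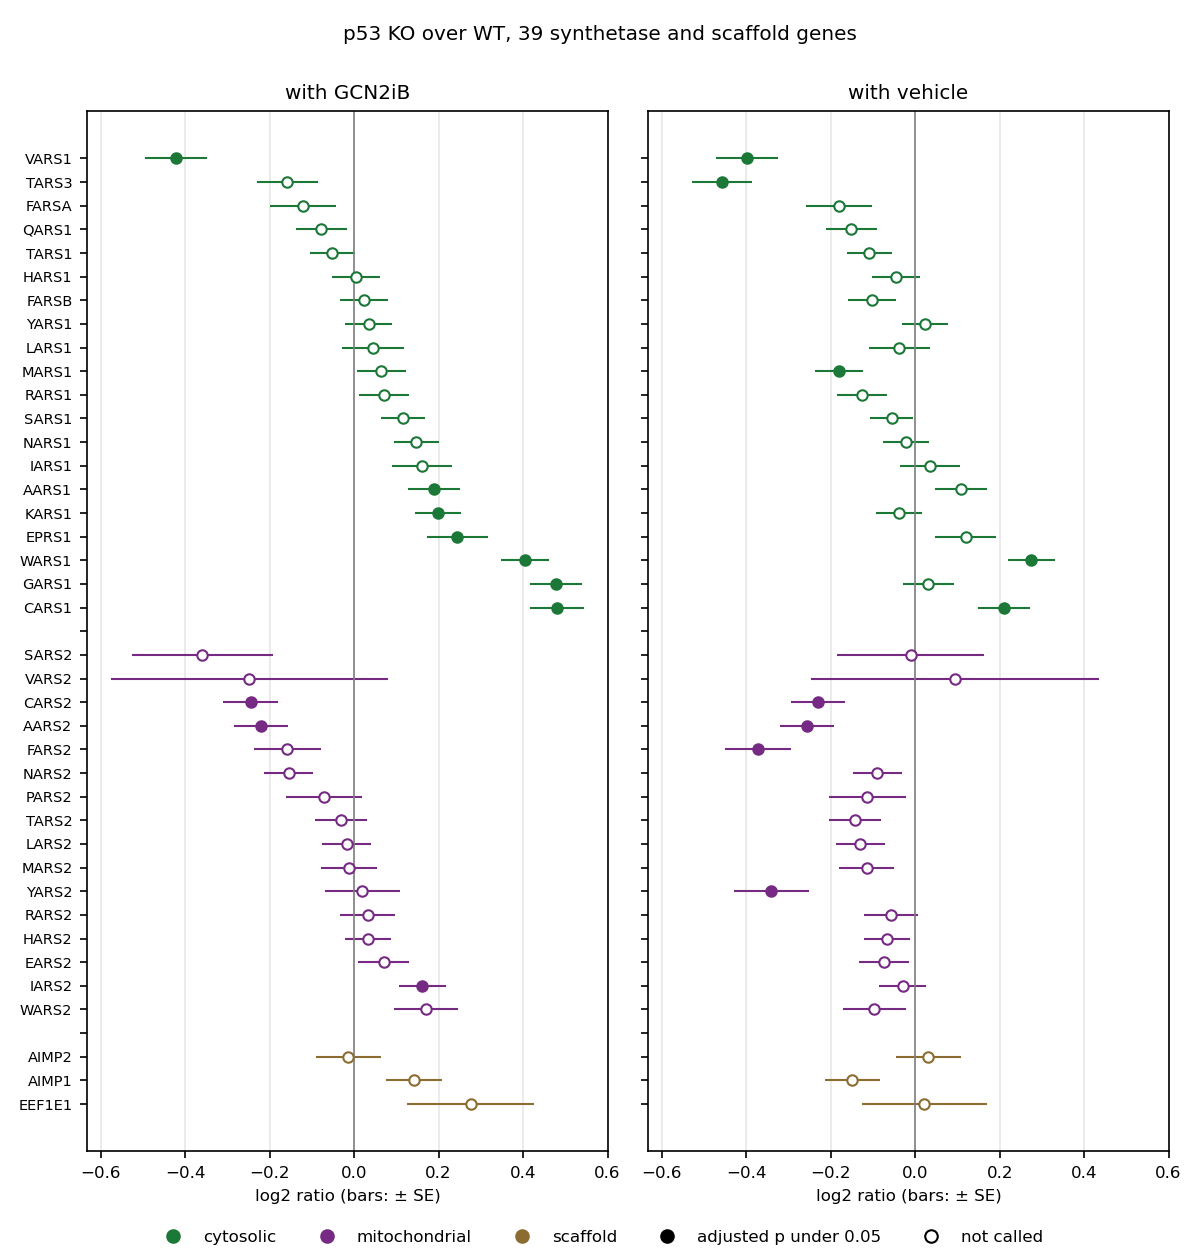
Log2 ratio of p53 KO over WT for the 39 genes, with GCN2iB on the left and with vehicle on the right; points are edgeR estimates, bars ± SE, and filled points have an adjusted p under 0.05. GARS1 and CARS1 are at the right edge with GCN2iB, at log2 0.48 each, while VARS1 is on the left in both panels.

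The difference between both GCN2iB responses was tested directly as an interaction, p53 KO response minus WT response. No gene of the 39 passed in edgeR's quasi-likelihood test, and 1 of 18549 genes passed in all (0.00539%). An unadjusted p under 0.05 was found for 12 of the 39 genes and for 1754 of 18549 (9.46%). DESeq2 called 1 of the 39, GARS1, and limma voom called 0. GARS1 had the smallest p, with a response difference of log2 0.45 (SE 0.09, interval of 2 SE 0.27 to 0.62, adjusted p = 0.0674). Its response was -1.15 in p53 KO and -1.59 in WT cells. The adjusted p over the alternatives ran from 0.00192 to 0.365, and it was 0.0108 without WT GCN2iB replicate 1 and 0.0334 without p53 KO GCN2iB replicate 4.

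AIMP1 and KARS1 followed by p. AIMP1 had 85.1, 87.7, 87.5 and 83.9 CPM in p53 KO GCN2iB and 83.7, 77.5, 75.8 and 78 in p53 KO vehicle, then 85.9, 77.3, 75.8 and 73.1 in WT GCN2iB and 98.3, 81.6, 85.7 and 83.9 in WT vehicle. Its response difference was log2 0.29 (interval 0.11 to 0.48, adjusted p = 0.349). KARS1 had 305, 306, 301 and 290.2 CPM in p53 KO GCN2iB and 267, 284, 267 and 279 in p53 KO vehicle, then 288, 247, 255 and 257 in WT GCN2iB and 277, 278, 289.8 and 282 in WT vehicle. The KARS1 response difference was log2 0.24 (interval 0.08 to 0.39, adjusted p = 0.349). These intervals do not show that the responses were alike.

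The response difference was above 0 for 33 of the 39 genes and for 54.8% of all tested genes, with medians of 0.11 and 0.02. With library totals as the only scaling the median over all genes was -0.02. In the main fit (TMM scaling) each of the 12 genes that fell in both genotypes had a smaller log2 fall in p53 KO cells. None of these differences passed the test there. How often this held among all tested genes that fell in both genotypes was not counted, so the 12 stand without a background. Over the alternatives YARS1 reached log2 -0.73 in p53 KO cells and went no lower than -0.70 in WT cells. For YARS1 the order thus did not hold in every alternative. Across the 39 genes the log2 responses of both genotypes had Pearson r 0.947 and Spearman rho 0.902, given as a description over genes that share libraries, and over all genes r was 0.509. YARS1 had nearly equal responses, -0.66 in p53 KO and -0.67 in WT cells (interval of the difference -0.14 to 0.17).

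Of 20 other listed genes of tRNA charging 19 were tested. With GCN2iB 3 rose and 3 fell in p53 KO cells, against 11.4% of all tested genes higher and 8.71% lower. In WT cells 2 rose and 8 fell, against 11.6% higher and 13.6% lower. XPOT, which exports tRNA from the nucleus, fell 1.48-fold in p53 KO cells (log2 -0.57, SE 0.07, adjusted p = 5.98e-06) and 1.57-fold in WT cells (log2 -0.65, SE 0.07, adjusted p = 8.06e-07). SEPSECS, which makes selenocysteine on its tRNA, and ELAC1, a tRNA nuclease, fell in both genotypes. PSTK, also listed for the selenocysteine tRNA, rose in WT cells (log2 0.56, SE 0.11, adjusted p = 0.000906). In p53 KO cells PSTK did not pass the test (log2 0.14, SE 0.11, adjusted p = 0.403). EEF1D, a subunit of the eEF1 exchange factor that VARS1 binds, rose by log2 0.24 in p53 KO and 0.48 in WT cells. QRSL1, GATB and GATC form the amidotransferase that makes mitochondrial glutaminyl-tRNA, for which no separate synthetase is listed. QRSL1 rose in p53 KO cells (log2 0.25, SE 0.06, adjusted p = 0.005), while in WT cells GATB (log2 -0.32, SE 0.07, adjusted p = 0.00284) and GATC (log2 -0.24, SE 0.07, adjusted p = 0.0118) fell.

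In p53 KO against WT cells 2 of these 19 genes were higher and 2 lower under GCN2iB, against 12.7% and 11.2% of all tested genes. Under vehicle 3 were higher and 8 lower, against 9.63% and 12.1%. QRSL1 was higher in p53 KO cells under both, by log2 0.43 with GCN2iB and 0.22 with vehicle. EEF1A1, the elongation factor that carries charged tRNA to the ribosome, was lower under both, by log2 -0.24 with GCN2iB and -0.58 with vehicle. None of the 19 was called in the interaction, and EEF1A1 had a response difference of log2 0.34 with an adjusted p of 0.152.

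Some counts can hold reads of other genes. Exons of 22 of the 39 genes overlap those of another gene in GENCODE 29, in 7 cases on the same strand, and 13 genes have at least 1 pseudogene by name, GARS1, CARS1, AARS1 and KARS1 among them. MARS1 shares 355 bases with DDIT3 and 519 with ARHGAP9, both on the opposite strand, and 13.3% of its exonic bases are overlapped in all. DDIT3 also fell with GCN2iB, by log2 -0.95 in p53 KO (adjusted p = 6.94e-06) and -0.93 in WT cells (adjusted p = 1.84e-05). In WT vehicle libraries DDIT3 was at 10.9 ± 1.74 CPM and MARS1 at 306 ± 14.6 CPM. The part of DDIT3 in the MARS1 counts was not tested. How the counting divided reads of overlapping genes is not given in the sources used here. Of the 39 genes 3 were under 10 CPM in every group, SARS2, VARS2 and EEF1E1, and for them the tests had the widest errors.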

How the data were processed

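The authors deposited raw read counts per gene for 62754 gene identifiers in 16 libraries of total RNA, paired-end, with no normalization. Per the submitters' processing notes, the tools were featureCounts, HISAT2, Trim Galore and DESeq2 and the build GRCh38; no versions are named. Neither the annotation release nor the strand setting is given in the sources used here. Each column carried the title of 1 sample, and 0 columns had no sample. Identifiers were matched to symbols (42343) and to GENCODE release 29 (58261). Library totals ran from 17418072 to 39915685 counts, and intervals cover the spread between libraries only.

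In R 4.3.3, filterByExpr of edgeR 4.0.16 kept 18549 genes, which held at least 99.9% of the counts of each library. Totals were scaled by TMM, and all 16 libraries entered a robust quasi-likelihood fit with a term for each group, from which 5 contrasts were drawn. Tests were two-sided, with Benjamini-Hochberg adjustment over the tested genes and a threshold of 0.05. Dividing the absolute log2 ratio by the root of its F statistic gave the SE. CPM per kilobase divides by the union of GENCODE 29 exons. Alternatives used DESeq2 1.42.0, limma 3.58.1 voom, other scalings and filters, a fit of the compared groups alone, a replicate block, removal of GC and length trends, and each library left out in turn. Tables and plots used Python 3.11.15, pandas 2.3.3 and matplotlib 3.10.9. The fit was tested on simulated counts with 200 changed genes.

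The members, the gene lists and the tests were chosen with earlier results of these data known. Values in every library are given for members called with at least a 1.5-fold change or a rise with GCN2iB, for members called with at least a 1.3-fold difference between genotypes, and, with none called in the interaction, for the 3 with the smallest p. The transcript of the knocked-out gene and 1 luminal marker are not reported here, and CDKN1A stands as the check of genotype. Protein sequences were not used here.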

Additional observations from a re-analysis of the deposited data

Results flagged for a closer look

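In a group of 4 libraries, 1 library was set apart when its gap to the nearest other, as a share of the group's range, exceeded Dixon's 95% critical value. Chance alone gives such a flag in about 5% of groups, and 10 of 168 groups were flagged. In p53 KO GCN2iB replicate 4, IARS1 was 276 CPM against 340 to 351 in the other 3 libraries. LARS1 in the same library was 158 CPM against 192 to 197, and LARS2 was 104 CPM against 120 to 122. In p53 KO GCN2iB replicate 3, the library with the lowest total, AARS2 was 43.7 CPM against 46.2 to 46.4 and SARS2 was 2.42 CPM against 4.44 to 4.83. In p53 KO vehicle, TARS1 was 305 CPM in replicate 1 against 275 to 277, and MARS2 was 51.8 CPM in replicate 2 against 49.7 to 50 CPM. In WT vehicle replicate 1, MARS1 was 285 CPM against 312 to 316 and PARS2 was 14.4 CPM against 19.8 to 20.9. The summed level of the cytosolic enzymes was 4569 CPM in WT GCN2iB replicate 1 against 4316 to 4343 in the others of that group.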

How the results depend on the processing

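Of 56 called changes of the 39 genes over the 5 comparisons, 44 stayed called under each of 26 alternatives (25 for the interaction), 12 were lost under at least 1 and 0 changed sign. The number of genes called for p53 KO against WT under vehicle was 9, and it was 14 with a replicate block and 16 with GC and length trends removed; leaving out 1 library gave 7 to 13. Under GCN2iB it was 10, with 6 to 14 when 1 library was left out. Leaving out 1 library gave 19 to 22 for GCN2iB in WT cells and 15 to 17 in p53 KO cells. For the interaction it was 0, with 1 gene, GARS1, under no count filter, the DESeq2 Wald test, the replicate block and the removed trends, and 0 to 1 when 1 library was left out. Over all 18549 genes the interaction called 1, against 61 with the block, 38 with DESeq2, 34 without WT GCN2iB replicate 1 (of 18918 tested), 10 without p53 KO GCN2iB replicate 4 (of 18770) and 47 of the 39509 tested with no filter. The cause was not tested. The labels do not tie a replicate number to a shared culture or day, and same-numbered libraries had a correlation of residuals above 0.1 in 12 of 24 pairs, not in all, so the numbers were not treated as pairs. The median was 0.0949 against -0.0377 in other pairs, and 11 of 16 libraries correlated best with their own number, a hint of pairing from the data, not the design. With the block the GARS1 interaction had an adjusted p of 0.00304 (0.00192 to 0.365 over all alternatives). Low counts limit SARS2, VARS2 and EEF1E1.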
